A study of Mus musculus with 29 samples.

Results

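The fasting response of skeletal muscle that lacks p110α, the main catalytic subunit of PI3K in this tissue, was described from 7 of the 29 RNA-Seq libraries of the study. The members were chosen by their labels alone: 3 libraries from fasted M-p110αKO mice and 4 from fed M-p110αKO mice. In M-p110αKO mice a Cre transgene driven by the human alpha-skeletal actin promoter, which is active in muscle fibers, removes exon 1 of a floxed Pik3ca gene. Satellite cells, vessels, nerve and other resident cells of the muscle keep the gene. Control mice of the same p110α line carried the floxed allele without recombination (labelled p110alpha.WT) and gave 4 fed and 4 fasted libraries. All mice were males labelled C57BL/6J, aged 2 to 3 months, and the sample was tibialis anterior muscle of mice fed freely or kept without food for a day. The other 14 libraries came from a p110β line, which the study's supplement describes as less purely C57BL/6, and are used here only to choose genes and to mark genes that differ between the lines.

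Feeding raises insulin, which acts through its receptor, IRS proteins and PI3K to activate AKT. AKT keeps FoxO transcription factors out of the nucleus and keeps mTORC1 active. In fasted muscle insulin falls, FoxO factors enter the nucleus, glucocorticoids rise, and the fiber turns from glucose to fatty acids while proteasomes and autophagy release amino acids. The comparison therefore asks which of these changes in mRNA still occur after food withdrawal when fibers lack the main insulin-activated PI3K.

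The 7 knockout libraries held 6302791 to 11450717 reads assigned to genes, and the 8 control libraries 5351935 to 11653239. Each library is named here by the number in its label. Levels are CPM, reads of a gene relative to the TMM-scaled library size, and a gene was called when its Benjamini-Hochberg adjusted p in edgeR's quasi-likelihood test was under 0.05. Mitochondrially encoded transcripts took 6.99% to 9.00% of reads in the fasted knockout libraries, 9.79% to 12.3% in the fed knockout libraries and 8.28% to 10.5% in the fasted controls. Muscle fiber markers were high in every library, with a summed level of 115700 to 124800 CPM in fed and 117400 to 121800 CPM in fasted knockouts. Markers of T and B cells stayed at or below 0.615 CPM in sum in the knockouts. In such bulk samples, fewer cells of a type and less RNA per cell cannot be told apart.

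The 3 fasted knockout libraries stood apart from the fasted controls in transcripts that also separate the lines. Of 213 processed and unprocessed pseudogenes tested, 41 rose and 8 fell on fasting in M-p110αKO, against 7 and 13 in controls. Over all genes tested, 11.6% rose and 9.91% fell in M-p110αKO, and 15.4% and 14.7% in controls. Aldoart1, a retrogene copy of aldolase A that can share reads with its parent, is an example: it was at 13.8, 17.8 and 10.8 CPM in the fasted knockouts against 2.23 to 2.64 CPM in the fasted controls and 3.03 to 3.98 CPM in the fed knockouts. The group means of the p110β line were 11.6 to 20.5 CPM. Gm12286, a processed pseudogene, was at 8.60, 9.77 and 4.78 CPM in the fasted knockouts, at or below 2.36 CPM in the other libraries of the p110α line, and at group means of 4.50 to 15.7 CPM in the p110β line. All 3 fasted knockout libraries thus held these transcripts at p110β-line levels, and every fasted knockout value below rests on these libraries. For the p110α RNA-Seq the paper's figure legend gives 3 controls and 4 knockouts. The labels give 4 fed and 4 fasted controls, with 4 fed and 3 fasted knockouts. Those of the p110β line give 3 controls and 4 knockouts in each state. The reason for this mismatch is not stated in the sources. Library identity, genetic background and read assignment cannot be told apart here. In all, 5120 of 12130 genes compared differed between the lines in fed muscle (42.2%), and 46.1% of the fasting calls in M-p110αKO and 46.5% of those in controls fell among them. Their direction was unlike in the genotypes. In M-p110αKO, 293 such rises went toward the p110β line and 418 away from it, and 343 falls toward and 178 away. In controls, 226 such rises went toward it and 691 away, and 273 falls toward and 549 away. The part of the line difference in the results was not tested, so counts without the genes that differ between the lines are given beside the main ones.

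Pik3ca itself (chromosome 3, 32397671 to 32468486, GRCm38) was at 136, 162, 106 and 136 CPM in the fed knockouts and at 156, 158 and 186 CPM in the fasted knockouts. Fed controls held 102 to 149 CPM and fasted controls 169 to 189 CPM, so the levels of the genotypes overlapped in both states. The deposited counts sum all exons of the gene and only the first is floxed, so these values do not check the deletion. The paper reports reduced p110α mRNA and protein in M-p110αKO muscle, a reduction that the summed counts do not show. The change of Pik3ca on fasting was 0.30 ± 0.14 (log2, SE) in M-p110αKO and did not pass the test (adjusted p = 0.122).

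Fasting changed a large part of the muscle transcriptome without p110α. Of 12433 genes tested, 1441 rose (11.6%) and 1232 fell (9.91%) in fasted against fed M-p110αKO, 2673 in all (21.5%). In controls, 1910 rose (15.4%) and 1829 fell (14.7%), 3739 in all (30.1%). With all genes of at least 1 read tested, 44.0% of the knockout calls were rises, against 53.9% in the main test. The 3 fasted and 4 fed knockout libraries did not overlap for 1268 of the 1441 rises and for 1088 of the 1232 falls. Over all genes tested, the fasted knockouts lay wholly above the fed ones for 14.6% and wholly below for 13.5%. Leaving out fasted knockout library 13 lowered the count to 1667, and dropping genes that differ between the lines lowered it to 1441.

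Most of these changes went the same way in controls, which share no library with the knockouts. Among the 1441 knockout rises, 1304 had the same sign in controls (90.5%) and 896 were also called there. Among the 1232 knockout falls, 1109 had the same sign (90.0%) and 692 were called. Those 896 and 692 genes were 46.9% of the control rises and 37.8% of the control falls. Without genes that differ between the lines, 856 of the 1588 shared calls were left. Of 390 genes that rose at least 2-fold in controls, 227 (58.2%) were called higher in M-p110αKO, and of 401 that fell as much, 205 (51.1%) were called lower. Chosen the other way, 282 genes rose and 278 fell at least 2-fold in M-p110αKO, and 66.0% and 66.5% were called in controls. Of 1014 control rises not called in M-p110αKO, 20 passed the test of the difference between the genotypes, and of 1137 such falls, 14. A call in 1 genotype alone is thus not a test of a difference. Only 12 genes were called in opposite directions. Across genes, which are not independent replicates, the log2 changes of the genotypes correlated with Pearson's r = 0.592.

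**Figure D1:**
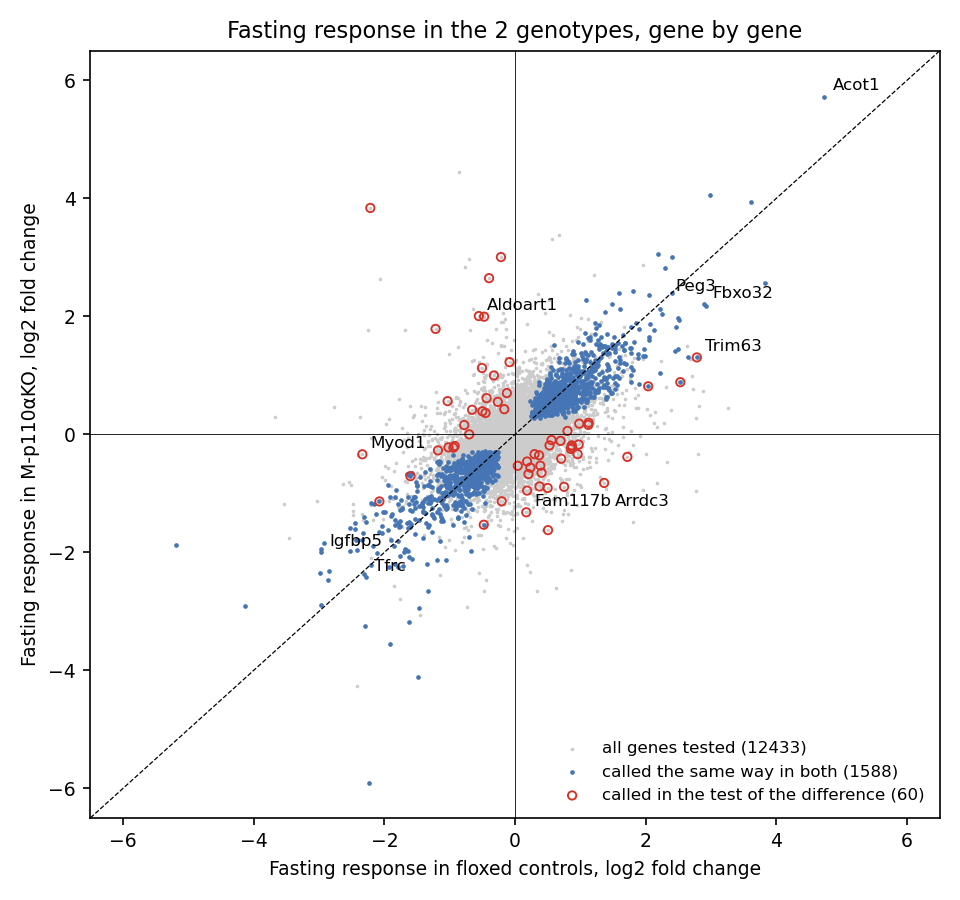
Each point is 1 of 12433 genes, with its log2 fold change on fasting in floxed controls on the x axis and in M-p110αKO on the y axis, and the dashed line marks equal change. The 1588 genes called the same way in both genotypes (blue) lie along the line, and 60 genes called in the test of the difference (red rings) lie off it. A total of 4 genes lie outside the plotted range.

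Genes chosen on the p110β line gave a view of size that does not depend on calls in either p110α genotype. Fasting raised 1265 and lowered 1027 genes in both genotypes of that line. The 1265 rises had a median log2 change of 0.43 in M-p110αKO and 0.51 in p110α controls, and 629 of them (49.7%) were called higher in M-p110αKO against 816 (64.5%) in controls. The 1027 falls had medians of -0.45 and -0.62, and 430 (41.9%) were called lower in M-p110αKO against 684 (66.6%) in controls. All 12433 genes had a median of -0.004 in M-p110αKO and 0.004 in controls. The change was larger in controls for 64.9% of the rises and 69.1% of the falls. These are descriptions over genes, with no test of the genotype difference.

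The same genes placed each library on a fed to fasted scale, as the mean log2(CPM + 1) over the rises minus that over the falls, with the fed controls set to 0 on average. Fed knockouts were at 0.156, -0.057, 0.067 and 0.235, and fasted knockouts at 1.17, 0.808 and 0.972. Fasted controls were at 1.15 to 1.21. Fed and fasted knockouts did not overlap, and fasted knockout libraries 14 and 15 lay below all 4 fasted controls while library 13 lay among them.

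**Figure D2:**
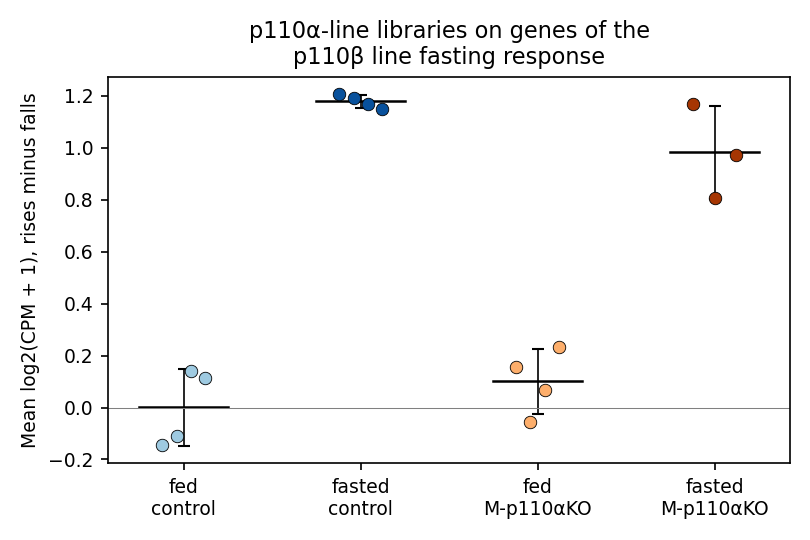
Position of each p110α-line library on genes that rose or fell on fasting in both genotypes of the p110β line, in log2(CPM + 1) units, with the group mean and SD. Fasted knockouts lie at 0.983 ± 0.18 (n = 3) and fasted controls at 1.18 ± 0.025 (n = 4), both far above the fed groups.

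Some muscle ubiquitin ligases, Fbxo32 and Trim63 among them, rose in fasted M-p110αKO muscle. Of 25 ligases listed and tested, 9 rose and 1 fell in M-p110αKO, against 11 and 4 in controls, and 8 were called the same way in both, where 11.6% of all genes rose in M-p110αKO. A further 15 did not pass the test. The median log2 change of the list was 0.25 in M-p110αKO and 0.27 in controls. Fbxo32, which encodes the atrophy ligase atrogin-1 (chromosome 15, 58175879 to 58214932), was at 597, 480, 447 and 471 CPM in fed and 2186, 2238 and 2496 CPM in fasted knockouts. All fasted libraries were several times above all fed ones, with a log2 change of 2.21 ± 0.12 (adjusted p = 5.54e-09). In controls it went from 541 ± 65.8 to 4009 ± 144 CPM (SD, n = 4 each), a change of 2.89 ± 0.12, and the difference between the genotypes did not pass the test (adjusted p = 0.0719). Trim63, which encodes MuRF1, a ligase of sarcomere proteins, was at 1086, 622, 562 and 443 CPM in fed and 2212, 1424 and 1382 CPM in fasted knockouts. The groups did not overlap but fed library 5 came close to the lower fasted values, and the change was 1.30 ± 0.23 (adjusted p = 0.000812). In controls Trim63 rose by 2.78 ± 0.23, to 3593 to 5237 CPM, above every fasted knockout. Ubr4, a ligase that reads the N-terminal residue of proteins, rose by 1.25 ± 0.12 in M-p110αKO and 0.82 ± 0.11 in controls. Fbxo31, an F-box ligase subunit, rose by 0.92 ± 0.10 and 0.49 ± 0.09.

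The proteasome is the complex that degrades what these ligases tag. Of 38 subunits tested, 7 rose and none fell in M-p110αKO, against 13 and 2 in controls, and 6 rises were shared. Over all genes, 11.6% rose and 9.91% fell in M-p110αKO, and 15.4% and 14.7% in controls. Proteasome calls in either direction were not above the 21.5% of all genes called in M-p110αKO. The median change was 0.22 in M-p110αKO and 0.25 in controls. Psmd11, a subunit of the 19S cap, rose by 0.86 ± 0.11 in M-p110αKO (adjusted p = 5.45e-05) and 1.09 ± 0.11 in controls. Psmd4, a ubiquitin receptor of the cap, rose by 0.89 ± 0.12 and 0.52 ± 0.12. Psma1, a subunit of the 20S core, was at 104 to 180 CPM in fed and 116 to 147 CPM in fasted knockouts with full overlap (-0.08 ± 0.21), and rose by 0.92 ± 0.19 in controls. That difference did not pass the test (adjusted p = 0.120). The count of rises in M-p110αKO was 3 without library 13, 4 without library 8 and 12 when GC content and length were corrected for.

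Autophagy genes responded in near the same number in both genotypes. Of 49 tested, 20 rose and 7 fell in M-p110αKO and 21 rose and 6 fell in controls, with 20 calls shared. Over all genes, 11.6% rose and 9.91% fell in M-p110αKO. Zfyve1, which encodes a marker of the membranes where autophagosomes form, was at 32.4 to 36.8 CPM in fed knockouts and at 93.5, 99.7 and 99.1 CPM in fasted ones (1.47 ± 0.10, adjusted p = 8.65e-08). Ulk1, the kinase that starts autophagy, went from 80.7 to 96.8 CPM to 257, 273 and 227 CPM (1.53 ± 0.12, adjusted p = 3.85e-07), and controls changed by 1.31 ± 0.11. Neither gene's fed and fasted libraries overlapped in either genotype. Gabarapl1, an ATG8 protein that coats autophagosomes, rose by 1.57 ± 0.14 in M-p110αKO and 1.82 ± 0.14 in controls. The cargo receptor Tax1bp1 rose by 0.72 ± 0.10 and 0.85 ± 0.09. Bnip3, a mitophagy receptor, rose by 0.77 ± 0.18 in M-p110αKO and 1.53 ± 0.17 in controls. Depp1, a FoxO target that modulates autophagy, was at 42.0 to 99.3 CPM in fed and 91.8 to 136 CPM in fasted knockouts, which overlapped, with a change of 0.88 ± 0.26 that was lost without library 6, 7, 13 or 15. The 7 falls in M-p110αKO were 3 without library 6 or 13, 4 without library 14 or with the knockouts fitted alone, and 2 without library 15.

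Lysosome genes, which supply the enzymes and acid that finish autophagy, counted 18 rises and 6 falls of 67 in M-p110αKO and 14 and 9 in controls. Over all genes, 11.6% rose and 9.91% fell in M-p110αKO. Atp6v1h, a subunit of the proton pump, was at 16.1 to 19.6 CPM in fed and 26.4 to 36.1 CPM in fasted knockouts (0.87 ± 0.14, adjusted p = 0.000453). Lamp2, a membrane protein of lysosomes, rose by 0.54 ± 0.10 in M-p110αKO and 0.80 ± 0.09 in controls. The groups of knockouts did not overlap for either gene. Without library 13 the list counted 12 rises and 2 falls, without library 14 it counted 3 falls, and with all genes of at least 1 read 10.

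Some genes of the insulin pathway itself changed on fasting without p110α. Of 49 tested, 15 rose and 5 fell in M-p110αKO, with 18 of the calls shared with controls. Over all genes, 11.6% rose and 9.91% fell in M-p110αKO. The insulin receptor Insr was at 107 to 126 CPM in fed and 272, 215 and 264 CPM in fasted knockouts (1.06 ± 0.10, adjusted p = 3.31e-06), and changed by 0.99 ± 0.10 in controls. Igf1r, the receptor of IGF-1, rose by 0.90 ± 0.09 and 1.03 ± 0.08. Both receptors doubled or nearly so in both genotypes, with no overlap of fed and fasted libraries. Irs2, an adaptor between receptor and PI3K, was at 84.8, 43.6, 35.9 and 27.7 CPM in fed and 251, 112 and 96.1 CPM in fasted knockouts. It varied widely within each state but did not overlap, and changed by 1.68 ± 0.33 (adjusted p = 0.00167) against 1.66 ± 0.31 in controls. Eif4ebp1, the translation repressor that mTORC1 switches off, was at 13.6 to 19.5 CPM in fed and 49.8, 46.6 and 36.7 CPM in fasted knockouts, a change of 1.40 ± 0.23 against 1.39 ± 0.22 in controls. Without library 13 the rises of the list were 9, and with all genes of at least 1 read the falls were 10.

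Sesn1, a stress-induced inhibitor of mTORC1, was at 42.4 to 61.7 CPM in fed and 146, 126 and 116 CPM in fasted knockouts (1.33 ± 0.14, adjusted p = 8.43e-06) and rose by 2.00 ± 0.14 in controls. Igfbp5, an IGF-binding protein, fell from 411 ± 102 CPM (SD, n = 4) to 76.1, 135 and 98.0 CPM, and so fell by 2.00 on the log2 scale, with an SE of 0.22. In controls Igfbp5 started higher, at 1009 ± 134 CPM, and changed by -2.97 ± 0.21 to a like fasted level of 101 to 164 CPM. The difference between the genotypes did not pass the test for Sesn1 (adjusted p = 0.129) or Igfbp5 (adjusted p = 0.125). Foxo3, a FoxO factor, rose by 0.75 ± 0.21 in M-p110αKO with overlap of the groups, and this call was lost without library 13. Foxo1 was at 34.8 to 122 CPM in fasted and 64.5 to 128 CPM in fed knockouts and was not called (adjusted p = 0.579). Pik3cd, the catalytic p110δ subunit known best from leukocytes, fell by 0.67 on the log2 scale in M-p110αKO, with an SE of 0.16, and by 1.65 in controls.

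FoxO factors bind the sequence GTAAACA, read on either strand (TGTTTAC), so promoters from 250 bases before to 50 bases after each gene's start were searched for it (RefSeq, GRCm38.p6). Of 75 genes named in the text that had a promoter in the RefSeq set, 2 held it, Trim63 and Sesn1, and both are shown with the match in capitals because both rose in both genotypes. The Trim63 promoter lies at chr4:134314870-134315169 and the Sesn1 promoter at chr10:41810324-41810623, both on the plus strand and read 5′ to 3′.
Trim63: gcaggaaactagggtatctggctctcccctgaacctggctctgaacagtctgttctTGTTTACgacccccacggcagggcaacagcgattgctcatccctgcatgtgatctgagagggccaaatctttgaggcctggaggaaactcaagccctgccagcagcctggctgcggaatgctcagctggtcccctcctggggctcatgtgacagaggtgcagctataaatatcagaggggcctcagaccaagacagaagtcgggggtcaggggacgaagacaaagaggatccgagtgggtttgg
Sesn1: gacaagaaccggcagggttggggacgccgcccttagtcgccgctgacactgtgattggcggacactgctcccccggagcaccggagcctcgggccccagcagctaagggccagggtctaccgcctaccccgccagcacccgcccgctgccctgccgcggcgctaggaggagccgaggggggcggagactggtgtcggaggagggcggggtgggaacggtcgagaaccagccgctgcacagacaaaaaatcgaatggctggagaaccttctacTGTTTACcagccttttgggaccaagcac
The match starts 194 bases before the transcript start of Trim63 and 22 bases after that of Sesn1. Of the genes tested that had a promoter sequence, 287 of 9362 held the motif (3.07%), against 44 of 1091 that rose in M-p110αKO (4.03%), 34 of 694 that rose in both genotypes (4.90%) and 21 of 943 that fell in M-p110αKO (2.23%). These shares are descriptions and a match is not evidence of binding.

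Part of the genes of fatty acid use rose in fasted M-p110αKO muscle. Of 31 genes of fatty acid oxidation, 13 rose and 1 fell in M-p110αKO, and 13 rose and none fell in controls, with 9 calls shared. Of 22 genes of fatty acid uptake and lipid droplets, 8 rose and 1 fell, with 9 calls shared. The lists had medians of 0.25 and 0.42 in M-p110αKO, where 11.6% of all genes rose and 9.91% fell. Acot1, an acyl-CoA thioesterase (chromosome 12, 84009490 to 84018371), made the largest rise of all genes named by the rule: it was at 0.185 to 0.498 CPM in fed and 13.8, 21.9 and 15.4 CPM in fasted knockouts, a change of 5.72 ± 0.55 (adjusted p = 2.52e-06). Its near-identical neighbor Acot2 went from 36.6 ± 5.87 CPM (SD, n = 4) to 164 ± 11.0 CPM (n = 3), a change of 2.17 ± 0.15. The split of reads between these copies is uncertain. In controls the changes were 4.73 ± 0.53 and 2.92 ± 0.15. Without library 13 or library 15, the oxidation list counted 8 rises.

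Pdk4, the kinase that shuts pyruvate out of the mitochondrion's acetyl-CoA supply, was at 2700, 1973, 2081 and 3263 CPM in fed and 4384, 5121 and 7060 CPM in fasted knockouts. The groups did not overlap and the change was 1.14 ± 0.27 (adjusted p = 0.00629). Controls went from 916 to 2694 CPM up to 5315 to 7319 CPM (1.78 ± 0.26), and the difference between genotypes did not pass the test (adjusted p = 0.442). Pdp1, the phosphatase that opposes Pdk4, fell to 46.5, 45.6 and 70.0 CPM from 91.6 to 111 CPM, a change of -0.92 ± 0.14 in M-p110αKO and -1.04 ± 0.13 in controls.

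Pnpla2, the triglyceride lipase of lipid droplets, was at 175, 188, 213 and 230 CPM in fed and 638, 497 and 458 CPM in fasted knockouts (1.40 ± 0.16, adjusted p = 1.16e-05), and rose by 1.07 ± 0.15 in controls. Plin5, which ties droplets to mitochondria, rose by 1.37 ± 0.21 and 1.09 ± 0.20. Slc27a1, a fatty acid transporter, rose by 0.89 ± 0.13 in M-p110αKO and 0.37 ± 0.12 in controls. Lpin1, an enzyme of glycerolipid synthesis and a coactivator, rose by 0.85 ± 0.15 and 1.08 ± 0.14. Acsl1, which activates fatty acids, rose by 0.78 ± 0.14 and 0.80 ± 0.13, and Angptl4, a secreted inhibitor of lipoprotein lipase, by 1.44 ± 0.33 and 1.53 ± 0.34. Mlycd, which removes malonyl-CoA, rose by 0.96 ± 0.21 and 0.54 ± 0.19. Fed and fasted knockouts did not overlap for any of these 7 genes. The summed level of 8 adipocyte markers was 115 to 140 CPM in fed and 142 to 206 CPM in fasted knockouts, and 1 of the 7 tested, Fabp4, was called. Adipoq and Plin1 were at or below 1.95 CPM in every knockout library. The part of fat cells in the lipid genes was not tested.

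Lipid synthesis and glucose genes gave no common direction. Of 32 genes of lipogenesis and cholesterol synthesis, 6 rose and 3 fell in M-p110αKO, with a median of -0.009. The rises were 3 without library 14, without library 15 or with the knockouts fitted alone. Fdft1, which makes squalene, rose by 0.80 ± 0.11 in M-p110αKO and 0.68 ± 0.11 in controls, whereas Dhcr7, the last enzyme of cholesterol synthesis, changed by -1.34 ± 0.21 and -1.37 ± 0.19. Insig1, which restrains sterol synthesis, rose by 0.84 ± 0.15 and Acacb, which makes the malonyl-CoA that limits fatty acid entry into mitochondria, by 0.89 ± 0.16. Of 43 genes of glucose use and glycogen, 6 rose and 5 fell, against 11 and 9 in controls. Over all genes, 11.6% rose and 9.91% fell in M-p110αKO, and 15.4% and 14.7% in controls. The glucose counts in M-p110αKO were near those shares. Fbp2, the muscle fructose bisphosphatase, was at 42.8 to 53.5 CPM in fed and 91.7, 137 and 86.1 CPM in fasted knockouts (1.14 ± 0.15, adjusted p = 6.75e-05). Phkg1, the catalytic subunit of phosphorylase kinase, changed by -0.60 ± 0.12. The glucose transporter Slc2a1 went from 7.40 to 11.1 CPM up to 17.1, 17.6 and 18.9 CPM (0.88 ± 0.19), and in controls changed by 0.18 ± 0.18, a difference that did not pass the test (adjusted p = 0.209).

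**Figure D3:**
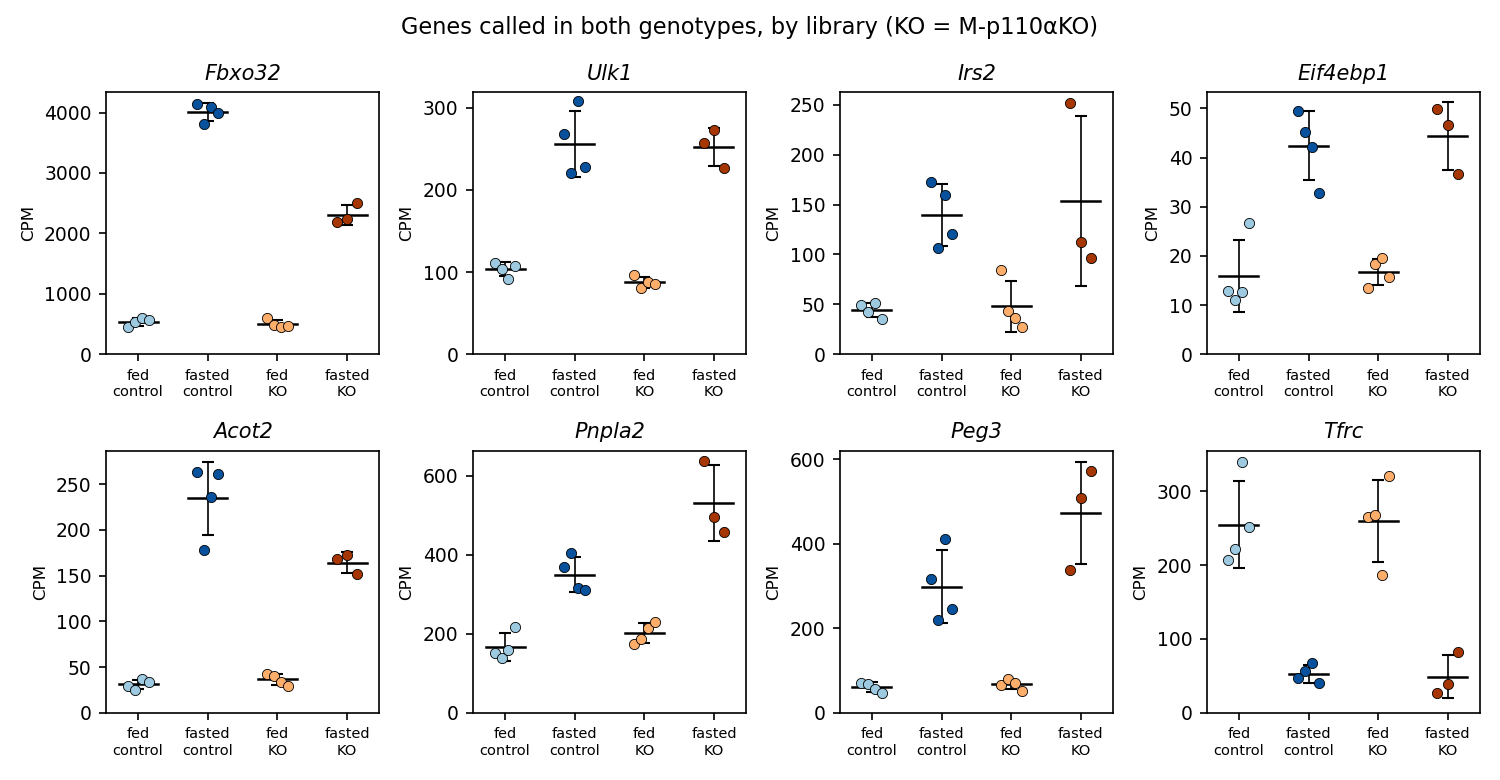
Levels of 8 genes in CPM by library, with group mean and SD, for fed and fasted controls (n = 4 each), fed M-p110αKO (n = 4) and fasted M-p110αKO (n = 3). In each panel the fasted knockouts lie wholly on the fasted side of the fed knockouts, and for Fbxo32 (2186 to 2496 CPM) they lie below the fasted controls (3815 to 4139 CPM).

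Amino acid and stress genes rose in part. Of 22 ATF4 and integrated stress response genes, 8 rose and 1 fell in M-p110αKO, and 7 calls were shared with controls. The rises were 4 without library 13. Ppp1r15a, which restarts translation by guiding a phosphatase to eIF2α, was at 7.93 to 14.7 CPM in fed and 35.3, 39.7 and 40.8 CPM in fasted knockouts (1.77 ± 0.23, adjusted p = 4.30e-05). Psph, the last enzyme of serine synthesis, changed the other way, by -1.31 ± 0.20, and by -1.20 ± 0.18 in controls. Of 40 amino acid genes, 7 rose and 2 fell, and no fall was left without library 5, 6, 7 or 15 or with the knockouts fitted alone. Over all genes, 11.6% rose and 9.91% fell in M-p110αKO. Slc7a2, a transporter of cationic amino acids, was at 115 to 141 CPM in fed and 352, 352 and 495 CPM in fasted knockouts (1.70 ± 0.16, adjusted p = 1.91e-06), and Slc43a1, a transporter of large neutral amino acids, rose by 1.07 ± 0.16. Fed and fasted groups of these 4 genes did not overlap.

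In the polyamine pathway, 1 of 15 genes rose and 5 fell in M-p110αKO, against 2 and 6 in controls. Amd1, which makes the aminopropyl donor for spermidine and spermine, was at 452, 435, 480 and 215 CPM in fed and 209, 172 and 153 CPM in fasted knockouts. The lowest fed value barely exceeded the highest fasted value, and the change was -1.15 ± 0.22 (adjusted p = 0.00152) against -1.52 ± 0.20 in controls. Odc1, the first enzyme of the pathway, rose by 0.83 ± 0.18 and 1.37 ± 0.16. The 5 falls were 2 without library 14, without library 15 or by limma-voom, and 3 without library 6. Among 30 antioxidant genes, 8 rose and 2 fell in M-p110αKO, where 11.6% of all genes rose and 9.91% fell, and 9 calls were shared. Gclm, a subunit of the enzyme that begins glutathione synthesis, rose by 1.21 ± 0.19 and Cat, catalase, by 1.00 ± 0.17, close to the 1.24 ± 0.17 and 1.12 ± 0.16 of controls. Without library 13 the antioxidant rises were 4, and the falls were 6 without library 14 and 5 with all genes of at least 1 read.

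Clock genes moved in both directions. Of 20, 7 rose and 4 fell in M-p110αKO, where 11.6% of all genes rose and 9.91% fell, with 8 calls shared with controls. Hlf, a clock output factor, fell to 12.7, 5.47 and 7.70 CPM from 27.5 to 34.8 CPM (-1.81 ± 0.21, adjusted p = 1.83e-05) and Dbp, of the same family, changed by -1.60 ± 0.33. Arntl, which encodes the core activator BMAL1, rose from 5.81 to 8.19 CPM to 14.0, 19.4 and 24.2 CPM (1.35 ± 0.21). In controls the changes were -1.15 ± 0.18, -2.45 ± 0.30 and 1.89 ± 0.20, in the same order of genes. The rises of the list were 3 without library 6, 4 without library 7 or 8 or with the knockouts fitted alone, and 2 without library 13, where the falls were 7. Of 29 glucocorticoid-responsive genes, 8 rose and 4 fell in M-p110αKO, and 10 calls were shared. The falls were 7 without library 13 or with all genes of at least 1 read. Cebpd, a glucocorticoid-induced factor, rose by 1.49 ± 0.20 in M-p110αKO and 1.33 ± 0.19 in controls, and Bcl6, a repressor, changed by -1.66 ± 0.28 and -1.27 ± 0.25. Fkbp5 (0.74 ± 0.46) and Klf15 (0.36 ± 0.20), both known targets of the receptor, were not called in M-p110αKO. The hour of sampling is not given in the labels.

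Part of the respiratory chain genes fell. Of 78 nuclear-encoded OXPHOS subunits, 1 rose and 29 fell in M-p110αKO and none rose and 35 fell in controls, with 13 calls shared, and 48 did not pass in M-p110αKO. The medians were -0.40 and -0.37, and 9.91% of all genes fell in M-p110αKO and 14.7% in controls. Cox5a, a subunit of complex IV, was at 314, 374, 369 and 376 CPM in fed and 202, 217 and 222 CPM in fasted knockouts (-0.74 ± 0.11, adjusted p = 0.000158), and Uqcr10, of complex III, changed by -1.01 ± 0.17. Ndufv2, of complex I, changed by -0.55 ± 0.10. In controls the changes were -0.24 ± 0.10, -0.21 ± 0.15 and -0.26 ± 0.09, and none of these 3 differences passed the test. The falls of the list were 13 without library 13, 18 without library 6 and 50 with all genes of at least 1 read tested. Of 13 mitochondrially encoded mRNAs, 5 fell and 1 rose in M-p110αKO, which moved with the lower mitochondrial read share of the fasted knockouts. When GC content and length were corrected for, 1 fall was left, without library 13 there were 3, and with all genes of at least 1 read there were 8. Of 77 cytosolic ribosome genes, none rose and 15 fell in M-p110αKO, against 1 and 19 in controls, with Rps12 at 18.4 to 29.3 CPM in fed and 10.1, 14.4 and 10.0 CPM in fasted knockouts (-0.98 ± 0.21). That count was 24 without library 5, 9 without library 7, 5 without library 6, 13 or 15, and 34 with all genes of at least 1 read.

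Sarcomere genes gave fewer calls in M-p110αKO, 1 rise and 5 falls of 50, than in controls, with 10 and 17, and 6 were shared. Over all genes, 11.6% rose and 9.91% fell in M-p110αKO, and 15.4% and 14.7% in controls. The sarcomere falls in M-p110αKO were thus near the share of all genes. Fast light chain Mylpf was at 5396, 6846, 6463 and 5952 CPM in fed and 3254, 4198 and 3315 CPM in fasted knockouts (-0.78 ± 0.14, adjusted p = 0.000766) and changed by -0.62 ± 0.13 in controls. Tpm2, a tropomyosin of the thin filament, changed by -0.62 ± 0.15 and -0.65 ± 0.14. No sarcomere gene was called in the test of the difference between the genotypes. The falls were 3 without library 13 and 11 with all genes of at least 1 read, and the rises were 4 without library 5, 5 without library 8 and 6 with all genes of at least 1 read.

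**Figure D4:**
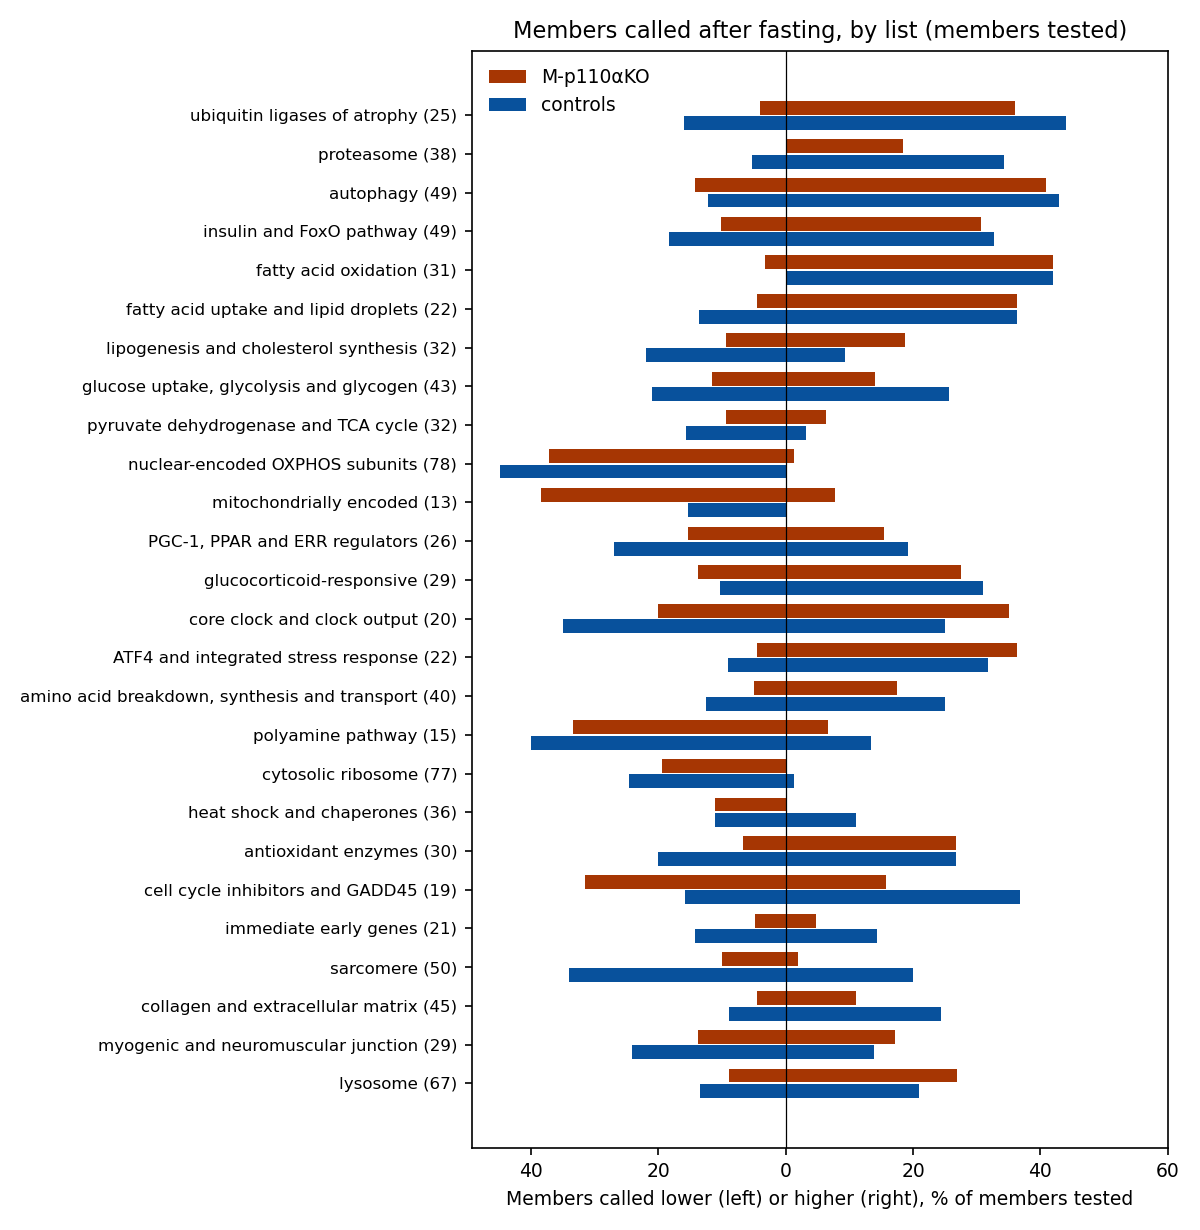
Share of the tested members of each list that were called higher (right of 0) or lower (left of 0) on fasting, in percent, for M-p110αKO (brown) and floxed controls (blue), with the number tested in brackets. Autophagy has 20 of 49 members higher in M-p110αKO and 21 of 49 in controls, and OXPHOS has 29 and 35 of 78 members lower. Over all genes tested, 11.6% were higher and 9.91% lower in M-p110αKO, and 15.4% and 14.7% in controls.

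The largest changes in fasted M-p110αKO muscle included genes outside these lists. Peg3, an imprinted zinc finger gene (chromosome 7, 6703892 to 6730431), was at 66.6, 78.8, 70.3 and 52.5 CPM in fed and 338, 508 and 572 CPM in fasted knockouts (2.82 ± 0.22, adjusted p = 3.59e-07). Its neighbor Zim1, also imprinted, rose by 2.12 ± 0.21. In controls they rose by 2.30 ± 0.21 and 2.22 ± 0.21. Tgif1, a homeobox corepressor of TGF-β signaling, rose by 2.40 ± 0.28 in M-p110αKO and 2.40 ± 0.27 in controls. Wdr62, a protein of the mitotic spindle pole, rose by 2.43 ± 0.32 and 1.81 ± 0.31, and Arid5a, which stabilizes cytokine mRNAs, by 2.28 ± 0.24 and 1.08 ± 0.24. Il6ra, the receptor of interleukin-6, was at 7.74 to 17.5 CPM in fed and 69.6, 24.9 and 25.9 CPM in fasted knockouts, and its call was lost without library 13.

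Among the falls, Tfrc, the transferrin receptor that takes up iron (chromosome 16, 32608920 to 32632794), was at 266, 268, 187 and 320 CPM in fed and 26.2, 38.4 and 82.0 CPM in fasted knockouts (-2.42 ± 0.31, adjusted p = 4.30e-05), and changed by -2.28 ± 0.27 in controls. Cntnap2, a neurexin-like membrane protein, changed by -2.19 ± 0.24 and Tiam1, an activator of Rac, by -2.12 ± 0.31. In controls Cntnap2 changed by -1.84 ± 0.20 and Tiam1 by -1.58 ± 0.24. Antisense and unclassified transcripts also stood among the 15 largest falls, but without known strand their reads cannot be told apart from those of overlapping genes. Of the core fasting genes, Ddit4, Fkbp5, Klf15, Ppargc1a, Ucp3, Txnip, Gadd45a, Mt1, Mt2, Srebf1 and Foxo1 were not called in M-p110αKO. Of these, Txnip, Gadd45a and Srebf1 were called in controls, with no difference between genotypes past the test.

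The test of the difference between the genotypes called 60 of 12433 genes (0.483%), and 1859 had an unadjusted p under 0.05. Of the 60, 24 were called on fasting in controls and not in M-p110αKO, 20 in M-p110αKO and not in controls, 6 in the same direction in both and 10 in opposite directions. The count was not stable: it was 2 without fed control library 1, 4 without library 2, 5, 6 or 12, 7 without library 14, 10 without library 9, 13 without library 11, 16 without library 10, 27 without library 13 and 39 without library 8. Corrected for GC content and length it was 5, and without genes that differ between the lines it was 17. The 5 genes were Aldoart1, Fam117b, Clcn1, Commd3 and Tmem131, the last named after its value was seen. DESeq2 called 237 genes.

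Clcn1, the chloride channel that steadies the fiber membrane, was at 176, 156, 198 and 165 CPM in fed and 130, 149 and 152 CPM in fasted knockouts, a change of -0.27 ± 0.10 that was not called. In controls it fell from 223 to 240 CPM to 93.8 to 110 CPM (-1.18 ± 0.09), and the difference of 0.91 ± 0.14 passed the test (adjusted p = 0.0120), also after the GC correction but not without library 1. Fed knockouts lay below all fed controls and fasted knockouts above all fasted controls. Myod1, the myogenic factor, overlapped between fed (7.66 to 14.9 CPM) and fasted (7.29 CPM and above) knockouts, and in controls went from 10.8 to 17.3 CPM down to 1.31 to 4.05 CPM (difference 2.00 ± 0.38, adjusted p = 0.0359). Dmpk, the myotonic dystrophy kinase, differed by 0.80 ± 0.15 and Sema6c, a membrane semaphorin, by 0.89 ± 0.16, both from larger falls in controls. With the GC correction the difference was 1.73 for Myod1 (adjusted p = 0.0775), 0.53 for Dmpk (adjusted p = 0.219) and 0.57 for Sema6c (adjusted p = 0.284). The calls of Myod1, Dmpk and Sema6c were also lost without library 1 and without each of several other single libraries.

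Cell cycle inhibitors and the ligase gene Trim63 were among the rises that were smaller in M-p110αKO. Cdkn1b, which encodes p27, was at 108 to 133 CPM in fed and 127 to 135 CPM in fasted knockouts, and in controls went from 98.3 to 114 CPM up to 173 to 199 CPM (difference -0.75 ± 0.13, adjusted p = 0.0334). Cdkn1a, which encodes p21, was already at 26.2 to 45.5 CPM in fed knockouts against 15.7 to 22.0 CPM in fed controls, and its fasted levels of 47.1 to 73.2 and 69.8 to 94.8 CPM overlapped (difference -1.22 ± 0.25, adjusted p = 0.0387). Trim63 differed by -1.48 ± 0.32 (adjusted p = 0.0489) and Depp1 by -1.65 ± 0.36 (adjusted p = 0.0464). Arrdc3, an arrestin-domain protein, was at 195 to 353 CPM in fasted knockouts and 563 to 1145 CPM in fasted controls (difference -2.19 ± 0.44, adjusted p = 0.0379). None of these 5 differences passed without library 1, and each was also lost without each of several other single libraries. That of Trim63 was also lost with the size factors of DESeq2 and without the mitochondrially encoded and most abundant genes. With the GC correction the differences were -1.53 for Trim63, -1.84 for Depp1, -1.32 for Cdkn1a and -0.56 for Cdkn1b. That of Arrdc3 shrank by less than its SE, and adjusted p was 0.0741 to 0.0775 for the 5 genes.

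A few genes changed mainly in M-p110αKO. Thra, the thyroid hormone receptor α, rose from 77.4 to 81.2 CPM to 117, 110 and 123 CPM (0.55 ± 0.09, adjusted p = 0.000438) and changed by -0.26 ± 0.08 in controls, a difference of 0.81 ± 0.12 that did not pass without library 1 and was 0.55 with the GC correction (adjusted p = 0.120). Fam117b, a gene of little known function, fell from 23.8 to 31.4 CPM to 11.1, 8.98 and 12.5 CPM (-1.32 ± 0.16) and changed by 0.17 ± 0.14 in controls (difference -1.49 ± 0.22, adjusted p = 0.0118). Max, the partner of MYC, changed by -0.67 ± 0.13 and 0.20 ± 0.12, a difference of -0.88 that was -0.82 with the GC correction (adjusted p = 0.0775). The mitochondrial mRNA mt-Nd4 was at 7762 to 11090 CPM in fed and 4341, 5575 and 5497 CPM in fasted knockouts (-0.95 ± 0.15), and its difference of -1.14 ± 0.20 was -0.85 with the GC correction (adjusted p = 0.0741). Fam117b and Aldoart1 passed under every alternative that kept them in the test, and both also differed between the lines in fed muscle. So did 43 of the 60 genes, where 42.2% of all genes compared differed. In all 43 the difference between genotypes had the same sign as the difference of the p110β line from the p110α line. Trim63, Depp1, Cdkn1a, Cdkn1b, Arrdc3, Myod1, Dmpk, Sema6c, Thra and Max were among them. For Arrdc3 the values were -2.19 and -1.98, and for Trim63 -1.48 and -0.48. Both differences use the fed libraries of the p110α line, and their agreement in sign over all genes was not counted. The part of the line difference in these calls was not tested.

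**Figure D5:**
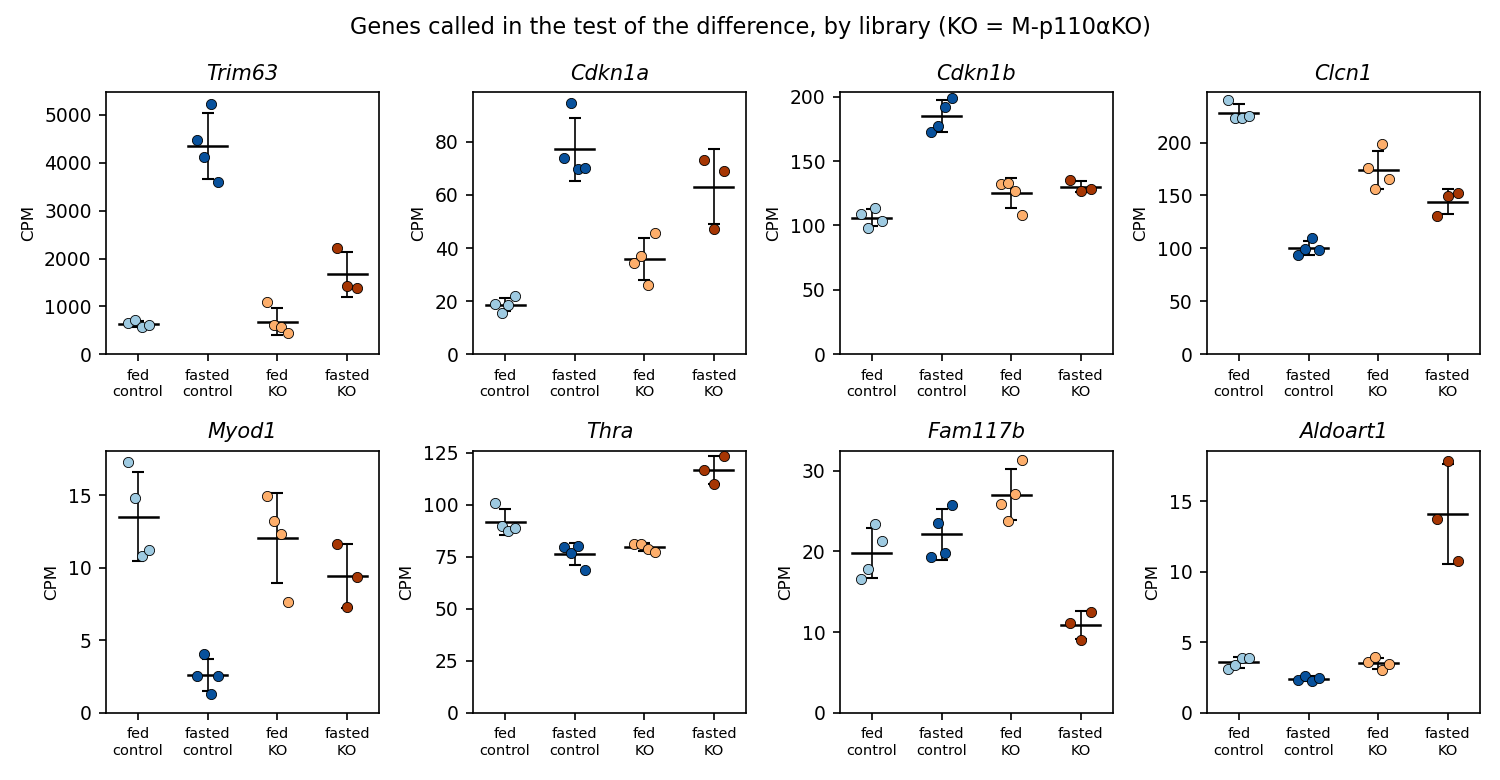
Levels of 8 genes called in the test of the difference between genotypes, in CPM by library, with group mean and SD, for fed and fasted controls (n = 4 each), fed M-p110αKO (n = 4) and fasted M-p110αKO (n = 3). Trim63 reaches 3593 to 5237 CPM in fasted controls and 1382 to 2212 CPM in fasted knockouts. Among these groups of the p110α line, Aldoart1 is high only in the fasted knockouts (10.8 to 17.8 CPM). Its group means in the p110β line, not plotted, were 11.6 to 20.5 CPM.

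Of the cell type markers reported here, Lyz2 (macrophage), Fabp4 (adipocyte), Pi16 (fibroblast) and Cldn5 (endothelium) rose, and Cd34 (fibroblast), Vcam1 (satellite cell), Hba-a1 (blood) and Mylpf fell. Summed macrophage markers were at 18.8 to 37.1 CPM in fed and 21.7 to 81.5 CPM in fasted knockouts, which overlapped. Over 6 nerve and Schwann cell markers the sum was 54.5 to 61.7 CPM in fed and 31.8 to 51.5 CPM in fasted knockouts, which did not overlap, and 42.0 to 90.0 CPM in fasted controls. None of the 4 of them that were tested was called. Summed blood markers were at 13.6 to 42.7 CPM in fed and 7.28 to 16.6 CPM in fasted knockouts, which overlapped, with a median log2 change of -1.19 over the 4 tested. Their part in the results was not tested.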

How the data were processed

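RNA of 29 tibialis anterior muscles was sequenced, 15 in the p110α line and 14 in the p110β line. The deposited values are read counts per gene for 48023 Ensembl genes. Per the labels, the authors aligned reads to GRCm38 with STAR and made the counts with Subread featureCounts, with strand and shared-read settings not stated in these sources. Symbols came from GENCODE M21 and matched 47310 IDs, while the other IDs held 0.0292% of counts.

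Groups followed the labels. Genes were kept by filterByExpr (minimum count 10, minimum total 15), which left 12433 genes in the p110α line, 12249 in the p110β line and 12352 in fed libraries of both. Counts were scaled by TMM and tested with edgeR's quasi-likelihood F test (edgeR 4.0.16, R 4.3.3), fitted per line with 1 coefficient per group, and p-values were adjusted over all genes tested (threshold 0.05). Fasting was tested in each genotype, and the difference of the 2 responses as an interaction. Changes are log2 fold changes ± SE. The SE was derived as the absolute change divided by the square root of the test's F, so it is approximate, most of all for changes near no change. The labels do not state that each library is a separate mouse, so p-values measure the spread between these samples. Replicate pairs differed by more than counting noise (chi-square per degree of freedom 5.41 to 28.0 over 21 pairs).

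Named genes were the 15 largest rises and falls without overlap of groups at a mean log2 CPM of at least 1, the genes of lowest p in the difference test, up to 4 members of lowest p per list, a core list and cell markers, from which the text leaves some out. The members and lists were chosen with earlier results of these data known. Alternatives used DESeq2 1.42.0, limma 3.58.1, other scalings and filters, a spline correction for GC and length, and each library left out. Scripts were tested on simulated data. Some genes and marker lists that the naming rule covers are not reported here.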

Additional observations from a re-analysis of the deposited data

Results flagged for a closer look

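The fasting responses of the genotypes differed by the interaction test for 14 of the genes named in the text, on the log2 scale as M-p110αKO minus controls. The difference was -1.48 for Trim63, -1.65 for Depp1, -1.14 for mt-Nd4, -0.75 for Cdkn1b, -1.22 for Cdkn1a, -1.49 for Fam117b, -2.19 for Arrdc3 and -0.88 for Max. It was 0.91 for Clcn1, 2.00 for Myod1, 0.80 for Dmpk, 0.89 for Sema6c, 0.81 for Thra and 2.56 for Aldoart1. All of these genes except Clcn1 and mt-Nd4 also differed between the lines in fed muscle, toward the p110β line in sign. Of all genes compared, 42.2% differed between the lines.

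Dixon's test was applied to groups of 4 libraries for the named genes and the fasting position, 273 groups in all, and 19 held a library far from the other 3. Chance flags about 1 in 20 such groups. In fed knockouts these were library 7 for Slc7a2 (141 CPM), library 8 for Amd1 (215 CPM), Arntl (5.81 CPM) and Il6ra (17.5 CPM), and library 5 for Cox5a (314 CPM). In fed controls they were library 4 for Eif4ebp1 (26.8 CPM), Slc27a1 (136 CPM), Psph (14.8 CPM), Odc1 (94.4 CPM), Tgif1 (2.88 CPM) and Wdr62 (4.62 CPM), library 3 for Slc43a1 (13.3 CPM) and Col15a1 (26.4 CPM), and library 1 for Clcn1 (240 CPM) and Chrne (21.5 CPM). In fasted controls they were library 12 for Ubr4 (550 CPM), library 10 for Ndufv2 (245 CPM) and Cdkn1a (94.8 CPM), and library 11 for Sema6c (71.6 CPM). The 3 fasted knockouts are too few for the test.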

How the results depend on the processing

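The fasting count in M-p110αKO was 1667 to 2544 as each library was left out (890 to 1344 rises and 777 to 1200 falls), and 1441 without genes that differ between the lines. Other settings kept it within 1.5 times of 2673. The control count stayed within 1.5 times of 3739. Shared calls were 856 without line genes, a choice made after seeing the data, and shared falls were 458 to 700 over the libraries left out. The difference between genotypes called 454 genes with all genes of at least 1 read, 237 by DESeq2, 5 with the GC and length correction, 17 without line genes and 2 to 74 as each library was left out. For genes chosen in M-p110βKO alone, the medians of rises were 0.304 in M-p110αKO and 0.405 in controls, and of falls -0.281 and -0.472. For genes chosen in p110β controls alone, the medians were 0.387 in M-p110αKO and 0.418 in controls for rises, which were larger in controls for 56.3% of genes, and -0.408 and -0.51 for falls (61.1%). With the GC correction, the control medians were 0.469 and -0.548, and leaving out libraries gave 0.504 to 0.541 and -0.645 to -0.593, both chosen for these medians after seeing the data. Of 82 named genes called in M-p110αKO, 79 passed under every alternative, none changed sign, and the exceptions were Depp1, Foxo3 and Il6ra. Many of the named genes were picked for low p or for groups without overlap in the same data, which favours such stability. The median of 17 of 26 lists kept its sign in every setting. No paired analysis was possible because the groups share no replicate numbers. The 3 fasted knockouts held 6302791 to 7734875 reads, and the power for small changes was not measured.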

Other observations

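Single genes of the neuromuscular junction and of the matrix around fibers changed on fasting in M-p110αKO. Ache, the acetylcholinesterase of the junction, was at 71.2, 74.1, 71.4 and 75.3 CPM in fed and 26.4, 36.2 and 36.4 CPM in fasted knockouts (-1.15 ± 0.20, adjusted p = 0.000662) and changed by -1.41 ± 0.18 in controls. Chrne, the adult subunit of the acetylcholine receptor, changed by -0.70 ± 0.17 and -1.19 ± 0.16. Fst, which encodes the myostatin inhibitor follistatin, was at 1.79 to 4.35 CPM in fed and 7.25, 7.94 and 8.16 CPM in fasted knockouts (1.49 ± 0.27) and rose by 1.32 ± 0.27 in controls. Of 29 myogenic and junction genes, 5 rose and 4 fell in M-p110αKO, where 11.6% of all genes rose and 9.91% fell, with 7 calls shared. The rises were 3 without library 5, 7, 14 or 15 and with the GC correction, and the falls 2 without library 5, 13 or 14.

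Of 45 collagen and matrix genes, 5 rose and 2 fell in M-p110αKO, beside 11.6% and 9.91% of all genes, so these counts were not above those of all genes. All 7 calls were shared with controls, where 11 rose and 4 fell. Lox, which cross-links collagen, went from 5.83 to 6.72 CPM up to 21.0, 12.9 and 19.4 CPM (1.49 ± 0.26, adjusted p = 0.000617), and Lama2, a laminin of the fiber's basement membrane, rose by 1.02 ± 0.20. Col15a1, a basement membrane collagen, changed by -1.08 ± 0.16. The rises of the matrix list were 8 without library 8 or with all genes of at least 1 read, and its falls were 4 without library 13 and 6 with all genes of at least 1 read. Ccng2, a FoxO-responsive cyclin, rose by 0.76 ± 0.12 in M-p110αKO and 1.22 ± 0.12 in controls.

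Of 32 genes of pyruvate dehydrogenase and the TCA cycle 2 rose and 3 fell, of 26 PGC-1, PPAR and ERR regulators 4 rose and 4 fell, and of 36 heat shock genes and chaperones none rose and 4 fell. Of 19 cell cycle inhibitors and GADD45 genes 3 rose and 6 fell, and of 21 immediate early genes 1 rose and 1 fell, where 21.5% of all genes were called. The counts moved with single libraries: without library 13 the cell cycle list had 3 falls and the regulators 1 rise, without library 7 the TCA list had 6 falls and the immediate early genes 5, and without library 6 the heat shock list had 2 falls.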
